A study of Mus musculus with 6 samples.

Results

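Olfactory receptor genes lie in a few large clusters of the mouse genome. The clusters on chromosomes 2, 9 and 19 were examined, as chr2:85000001-89800000, chr9:37500001-40000000 and chr19:12000001-14000000 of the build mm9. Their bounds are set by position, not by any measured value. They held 42460 of the 20451903 CpGs in the data, or 0.208%: 20428 on chromosome 2, 11024 on chromosome 9 and 11008 on chromosome 19. CpGs were summed in non-overlapping 1 kb windows, and 8781 of the 2335885 autosomal windows with a CpG lay in the clusters. The 5 Mb on either side of each cluster, here called its flanks, held 257518 CpGs and served for comparison.

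Whole-genome bisulfite sequencing gave the methylation of single CpGs in LSK cells. These are mouse bone marrow cells without lineage markers that carry Sca-1 and c-Kit, and include the blood stem cells and early progenitors. The groups were 3 wild-type (WT) samples and 3 samples from mice lacking both Tet2 and Tet3 (DKO), and the study asked how this loss affects methylation. The labels call the 3 samples of a group biological replicates. The sources used here give neither the alleles, the agent that deletes the genes, the strain and the age nor whether a sample pools animals. Neither the deletion nor the identity of the sorted cells was checked here.

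Each olfactory receptor gene encodes an odorant-binding G protein-coupled receptor, and a mature olfactory sensory neuron expresses a single allele of a single receptor gene. In other tissues, blood included, the genes are known to be silent, packed in heterochromatin. Most CpGs of a mammalian genome are methylated, apart from CpG-rich promoters and active enhancers. Tet enzymes oxidise 5-methylcytosine to 5-hydroxymethylcytosine and further products and are best known for acting at such regulatory elements. Bisulfite does not tell 5-methylcytosine from 5-hydroxymethylcytosine, so a methylation level here is the sum of both.

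The regions were checked against the gene order of RefSeq (GRCm38.p6), between the nearest genes outside each region whose promoters could be placed on the CpGs of the data. On chromosome 2, 216 of 222 protein-coding genes in that span (97.3%) were olfactory receptor genes (Olfr). The span reached up to 510.4 kb past a region. The share was 95 of 102 (93.1%) on chromosome 9 and 60 of 72 (83.3%) on chromosome 19. The other genes on chromosome 19 include Osbp (an oxysterol-binding protein), Lpxn (leupaxin, an adaptor of blood cells), Mpeg1 (a pore-forming protein of macrophages), Zfp91 and Fam111a. CpG density was 4.26 per kb on chromosome 2, 4.41 on chromosome 9 and 5.50 on chromosome 19, against 8.19, 9.30 and 8.26 in the respective flanks. The description of the clusters as CpG-poor and dominated by olfactory receptor genes therefore held, while silence could not be checked without expression data.

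The lack of CpGs is visible in the promoters themselves. Over 300 bases, from 250 before to 50 after the start of transcription, the 414 RefSeq promoters of Olfr genes on these 3 chromosomes had a median of 1 CpG, and 35.3% had none. Among all 32851 RefSeq promoters the median was 7 and 5.43% had none. The sequences below show this contrast. For each chromosome they give the Olfr promoter with the median number of CpGs that came first in alphabetical order, and the Olfr promoter with the most. The last is the CpG-richer promoter of Fam111a, a protease gene within the chromosome 19 cluster, which was chosen after its values were seen. Sequences and positions are from RefSeq (GRCm38.p6), 5′ to 3′ on the strand of the gene, and capitals mark each CpG. Olfr1000 is at chr2:85608859-85609158 on the minus strand and Olfr1212 at chr2:88958218-88958517 on the plus strand. Olfr25 is at chr9:38329242-38329541 on the plus strand and Olfr976 at chr9:39960995-39961294 on the minus strand. Olfr1427 and Olfr1423 are on the minus strand, at chr19:12099588-12099887 and chr19:12036691-12036990, and Fam111a is on the plus strand at chr19:12573260-12573559.
Olfr1000: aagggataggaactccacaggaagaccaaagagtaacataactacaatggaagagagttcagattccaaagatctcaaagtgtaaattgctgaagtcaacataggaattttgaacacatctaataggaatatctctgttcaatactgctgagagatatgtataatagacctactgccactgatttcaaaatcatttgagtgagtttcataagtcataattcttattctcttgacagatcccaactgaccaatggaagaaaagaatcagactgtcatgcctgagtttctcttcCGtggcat
Olfr1212: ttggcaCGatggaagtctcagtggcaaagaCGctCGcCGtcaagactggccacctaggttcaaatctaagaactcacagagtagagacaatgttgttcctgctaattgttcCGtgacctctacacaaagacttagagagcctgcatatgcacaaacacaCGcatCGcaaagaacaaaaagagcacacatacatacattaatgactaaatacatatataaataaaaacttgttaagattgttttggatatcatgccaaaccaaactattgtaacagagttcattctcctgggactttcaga
Olfr25: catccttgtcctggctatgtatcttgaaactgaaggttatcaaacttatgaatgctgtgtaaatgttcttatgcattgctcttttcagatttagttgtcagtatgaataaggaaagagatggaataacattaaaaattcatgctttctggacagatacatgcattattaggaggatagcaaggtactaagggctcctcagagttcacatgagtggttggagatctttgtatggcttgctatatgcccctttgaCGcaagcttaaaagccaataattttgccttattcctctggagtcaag
Olfr976: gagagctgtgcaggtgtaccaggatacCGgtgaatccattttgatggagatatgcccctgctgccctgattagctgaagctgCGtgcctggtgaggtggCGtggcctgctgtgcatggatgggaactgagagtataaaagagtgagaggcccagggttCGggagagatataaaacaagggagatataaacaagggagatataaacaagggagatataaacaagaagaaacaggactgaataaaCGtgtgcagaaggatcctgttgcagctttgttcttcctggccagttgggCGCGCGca
Olfr1427: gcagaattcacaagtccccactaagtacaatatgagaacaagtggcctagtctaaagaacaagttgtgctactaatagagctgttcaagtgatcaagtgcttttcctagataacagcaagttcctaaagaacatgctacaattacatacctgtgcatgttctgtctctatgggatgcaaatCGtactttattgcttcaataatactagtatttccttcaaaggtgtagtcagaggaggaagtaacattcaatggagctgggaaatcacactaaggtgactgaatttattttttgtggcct
Olfr1423: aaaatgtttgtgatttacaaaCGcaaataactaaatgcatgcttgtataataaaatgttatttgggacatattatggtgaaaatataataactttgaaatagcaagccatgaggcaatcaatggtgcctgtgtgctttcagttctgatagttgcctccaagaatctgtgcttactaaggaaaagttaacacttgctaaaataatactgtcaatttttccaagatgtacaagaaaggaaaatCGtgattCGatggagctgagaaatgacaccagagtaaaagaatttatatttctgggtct
Fam111a: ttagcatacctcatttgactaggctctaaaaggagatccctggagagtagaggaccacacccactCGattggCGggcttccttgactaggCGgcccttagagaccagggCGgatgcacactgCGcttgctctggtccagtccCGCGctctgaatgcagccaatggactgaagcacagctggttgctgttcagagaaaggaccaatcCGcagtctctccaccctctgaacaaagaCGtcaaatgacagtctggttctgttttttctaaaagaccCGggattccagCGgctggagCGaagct
Olfr1000, Olfr25 and Olfr1427 hold 1 CpG each. Olfr1212 holds 7, Olfr976 holds 8 and Olfr1423 holds 3, while Fam111a holds 12.

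Depth was low and differed between the groups. Read calls (reads summed over CpGs) were 70815948 to 72747248 in the WT samples and 83560585 to 111763872 in the DKO samples. In the clusters the mean depth was 2.85 to 2.92 reads per CpG in WT and 3.31 to 4.10 in DKO. Relative to the autosomes, cluster depth was 0.785 to 0.824 in WT and 0.803, 0.729 and 0.792 in DKO replicates 1 to 3, so that CpG-poor sequence was least covered in DKO replicate 2. That sample also stood apart in its read distribution over 1 Mb bins, with a chi-square per degree of freedom of 117 and 81.3 against the other DKO samples, while all other pairs within a group gave 11.8 to 23.0. The level over the mitochondrial genome, where little methylation is known, was 1.21 to 1.37% in WT and 1.53 to 1.86% in DKO. The autosomal level was 80.5 to 81.1% in WT and 80.7 to 82.3% in DKO. Permutation tests of 3 samples against 3 cannot give a p below 0.1, whatever the difference.

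The clusters on chromosomes 2 and 9 were among highly methylated sequence in both genotypes, and no cluster differed between the genotypes by more than the spread between samples. On chromosome 2 the level was 87.0, 86.5 and 86.8% in WT replicates 1 to 3 and 85.5, 85.7 and 87.6% in DKO replicates 1 to 3. DKO replicates 1 and 2 were below every WT sample and DKO replicate 3 was above every WT sample. The group means of 86.8% ± 0.267 and 86.3% ± 1.13 (SD, n = 3 each) differed by -0.493 percentage points (SE 0.673, two-sided exact permutation p = 0.5). Single samples moved this value: it was -0.116 without DKO replicate 1, -0.216 without DKO replicate 2 and -1.15 without DKO replicate 3 (exact permutation p = 0.1).

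The chromosome 9 cluster had the same arrangement. Its level was 86.7, 86.8 and 86.7% in WT and 85.9, 85.9 and 87.7% in DKO, with DKO replicate 3 again above and the other DKO samples below all WT samples. Group means of 86.7% ± 0.0586 and 86.5% ± 1.05 (SD, n = 3 each) differed by -0.194 points (SE 0.608, exact permutation p = 1). Without DKO replicate 1 the difference was 0.131, and without DKO replicate 2 it was 0.0879, so its sign rested on single samples.

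The chromosome 19 cluster was the least methylated and the most variable between samples. Its level was 77.8, 78.7 and 80.4% in WT and 79.8, 77.1 and 81.0% in DKO, and the groups overlapped. Its means of 79.0% ± 1.35 and 79.3% ± 2.00 (SD, n = 3 each) differed by 0.299 points (SE 1.39, exact permutation p = 0.9), a difference that became -0.540 without DKO replicate 3 and -0.296 without WT replicate 1. The 3 clusters together had a WT level of 84.6% ± 0.384 and a DKO level of 84.3% ± 1.31 (SD, n = 3 each). The genotypes differed by -0.284 points (SE 0.785, exact permutation p = 0.8), and by 0.276 without DKO replicate 2. The Benjamini-Hochberg adjusted p was 1 for all 4 comparisons. The SD of the DKO samples exceeded that of the WT samples in each cluster.

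**Figure D1:**
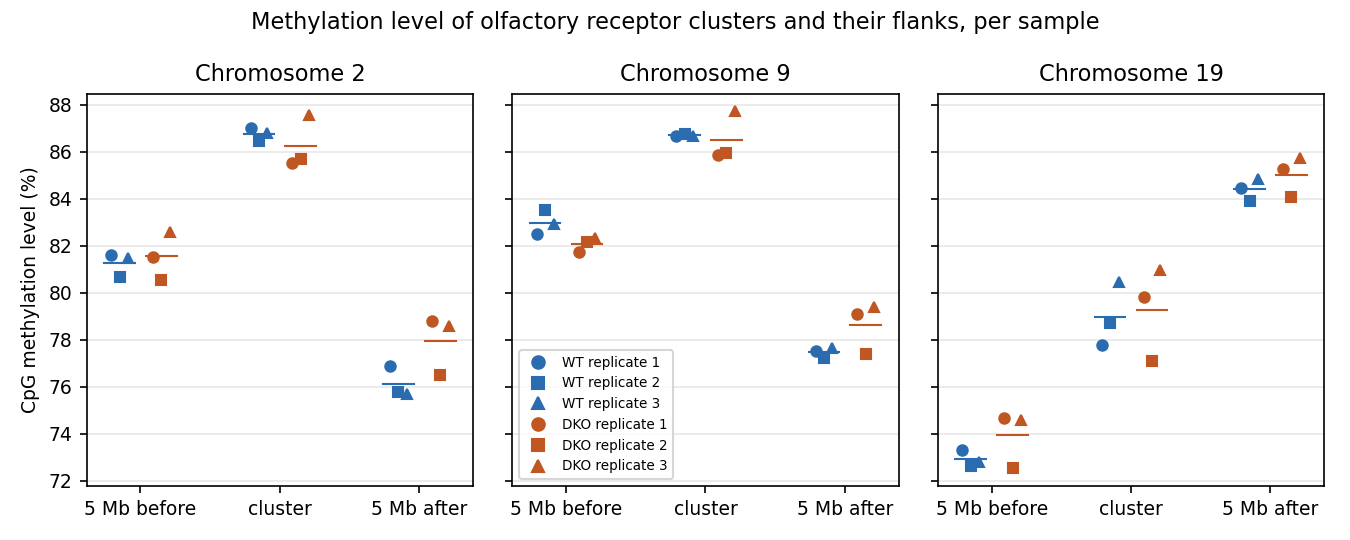
Methylation level (methylated reads over all reads, percent) of each olfactory receptor cluster and of its flanks in the 6 samples, with points for samples and lines for group means. The clusters on chromosomes 2 and 9 lie near 87% in both genotypes, above the flank on either side. The chromosome 19 cluster, with a WT mean of 79.0%, lies between its left flank (72.9%) and its right flank (84.4%).

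The flanks were less methylated than the clusters on chromosomes 2 and 9, by 8.73 ± 0.318 and 6.15 ± 0.162 points in WT (SD, n = 3 each). On chromosome 19 the WT difference was 0.881 ± 1.39 points, but its flanks were unlike: the WT mean was 72.9% in the left and 84.4% in the right. The flanks of chromosome 2 measured 78.0% ± 0.555 in WT and 79.2% ± 1.17 in DKO (exact permutation p = 0.2). Those of chromosome 9 measured 80.6% ± 0.205 and 80.5% ± 0.488 (exact permutation p = 0.9), and those of chromosome 19 measured 78.1% ± 0.375 and 78.8% ± 1.17 (exact permutation p = 0.4; n = 3 in each group). Leaving out windows with more than 3 times the median depth (high-copy windows) kept 92977 of the 92997 CpGs in the chromosome 9 flanks. These flanks then measured 78.25% ± 0.411 in WT and 79.10% ± 1.05 in DKO (exact permutation p = 0.3). The chromosome 9 cluster then exceeded them by 8.45 ± 0.468 points in WT.

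Whether loss of Tet2 and Tet3 moved the clusters differently from their surroundings was read from the level of the cluster minus that of its flanks in each sample. On chromosome 2 this was 8.37, 8.91 and 8.93 points in WT and 5.70, 7.81 and 7.54 points in DKO, so the groups did not overlap. The means of 8.73 ± 0.318 and 7.01 ± 1.14 (SD, n = 3 each) differed by -1.72 points (SE 0.686, exact permutation p = 0.1, the lowest this design allows, adjusted p = 0.4 over 4 comparisons). It was -1.06 points without DKO replicate 1. Against the left flank alone it was -0.783 points, against the right flank alone -2.32 points, and over CpGs with 5 or more reads in each sample -3.69 points, where the groups overlapped (exact permutation p = 0.2).

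On chromosome 9 the cluster exceeded its flanks by 6.33, 6.03 and 6.08 points in WT and by 5.32, 5.94 and 6.75 points in DKO, and the groups overlapped. The means differed by -0.145 points (exact permutation p = 0.7), or by 0.197 without DKO replicate 1. The left flank of this cluster holds windows with more than 3 times the median depth, and its mean depth reached 12.1 reads per CpG. Without such high-copy windows the cluster exceeded its flanks by 8.28, 8.98 and 8.09 points in WT and 6.42, 8.01 and 7.79 points in DKO, groups that no longer overlapped, with a difference of -1.04 points (exact permutation p = 0.1). With these windows kept, the left flank alone gave 0.706 points (exact permutation p = 0.4), and the right flank alone -1.36 points (exact permutation p = 0.1).

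On chromosome 19 the cluster differed from its flanks by -0.581, 1.04 and 2.19 points in WT and by 0.379, -0.396 and 1.40 points in DKO. These groups overlapped, and the difference of -0.419 points (exact permutation p = 0.8) became 0.234 without WT replicate 3 and 0.00989 without DKO replicate 2. Over the 3 clusters together the difference was -0.778 points (SE 0.490, exact permutation p = 0.3, adjusted p = 0.6). That value depended on the comparison made. With high-copy windows kept, it was -0.0738 points against the left flanks alone and -1.49 points against the right flanks alone (exact permutation p = 0.1). The left flanks include the high-copy windows of chromosome 9. Against both flanks it was -1.21 points without high-copy windows, and -0.458 points with them but without DKO replicate 1.

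Each sample covered a different mix of CpGs. The share of cluster reads in windows with 11 or more CpGs was 20.2 to 21.8% in WT, 20.9% in DKO replicate 1, 21.4% in DKO replicate 3 and 24.4% in DKO replicate 2. On chromosome 19 it was 28.8 to 31.0% in WT and reached 34.9% in DKO replicate 2. The comparison was therefore repeated over CpGs with at least 1 read in every sample, each with the same weight in all samples, which left 18094 CpGs of the clusters.

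With equal weights, cluster minus flanks did not overlap between the groups in any of the 3 clusters: all DKO samples were below all WT samples. On chromosome 2 it was 8.60, 8.36 and 8.18 points in WT and 5.81, 5.57 and 7.01 in DKO. On chromosome 9 it was 7.68, 8.23 and 7.57 points in WT and 5.64, 5.68 and 6.996 in DKO. The chromosome 19 cluster stood slightly above its flanks in WT, by 1.15, 0.810 and 0.868 points, and at -0.964, -0.100 and 0.386 points in DKO. The differences were -2.25, -1.72 and -1.17 points for chromosomes 2, 9 and 19, and -1.77 points (SE 0.416) for the 3 clusters together, each with an exact permutation p of 0.1. This measure combines a choice of CpGs with equal weights. With the choice of CpGs alone, reads pooled as before, the differences were -2.39 points on chromosome 2 (exact permutation p = 0.1), -0.273 on chromosome 9 (exact permutation p = 0.8) and -0.530 on chromosome 19 (exact permutation p = 0.6), and -0.908 over the 3 clusters (exact permutation p = 0.3). Over CpGs with 5 or more reads in each sample the 3 clusters together gave -0.0273 points (exact permutation p = 1). Singly, chromosomes 2, 9 and 19 gave -3.69, -1.59 and -2.29 points in that setting (exact permutation p = 0.2, 0.6 and 0.2). High-copy windows were kept there. On chromosomes 9 and 19 the groups thus overlapped with a choice of CpGs alone, and with at least 1 read and equal weights they did not. On chromosome 9 they also did not overlap with pooled reads once high-copy windows were left out, as given above. What set these measures apart was not tested. The 3 clusters come from the same 6 libraries and are not independent repeats of the comparison.

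Of the levels behind this measure, those of the flanks separated the genotypes. Their means were 78.4% ± 0.142 for WT and 79.9% ± 0.443 for DKO (SD, n = 3 each), 1.57 points apart, with every DKO sample above every WT sample on each chromosome (exact permutation p = 0.1, the lowest this design allows). The clusters measured 84.4% ± 0.0720 in WT and 84.2% ± 1.13 in DKO and differed by -0.207 points (SE 0.656, exact permutation p = 0.8).

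**Figure D2:**
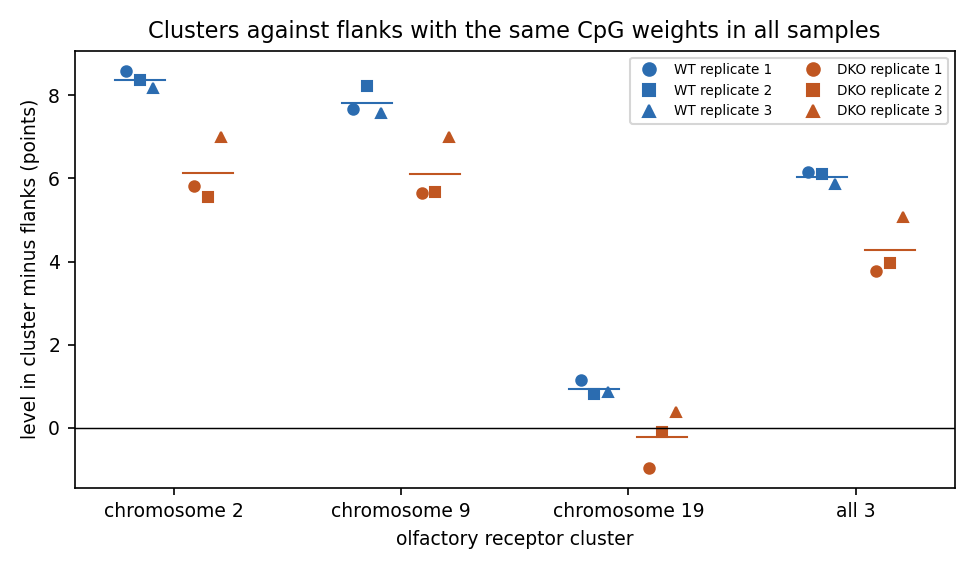
Level of each cluster minus that of its flanks (percentage points) with equal CpG weights across the samples; points stand for samples and lines for group means. In each cluster, and in all 3 together, every DKO point lies below every WT point; the mean differences are -2.25, -1.72, -1.17 and -1.77 points.

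Because the clusters are poor in CpGs, windows were also compared with flanking windows of the same CpG density. Windows with 1 to 2 CpGs made up 27.4% of cluster windows and 11.5% of autosomal windows, those with 3 to 5 CpGs 44.1% and 28.8%, those with 6 to 10 CpGs 22.1% and 34.2%, and those with 11 or more CpGs 6.37% and 25.5%. With the 3 clusters pooled, the WT level was below that of the flanks in the 3 sparser classes. The mean differences were -2.43 ± 0.190, -2.15 ± 0.339 and -0.795 ± 0.2498 points from the sparsest up (SD, n = 3 each). Single clusters differed: in the same order they gave -4.47, -4.46 and -2.25 points on chromosome 19 and -2.59, -2.29 and -0.111 ± 0.446 on chromosome 2. On chromosome 9 they gave -0.670 ± 1.16, 0.0624 ± 0.274 and -0.453 ± 0.585 points, with WT replicate 3 at 0.479 in the sparsest class. In windows of 6 to 10 CpGs, 1 WT sample was above the flanks on chromosome 2 and 1 on chromosome 9. The higher level of the clusters as a whole came with their small share of CpG-dense windows. It also came with the level of those windows: in the densest class the WT level was 87.9% in the cluster on chromosome 2 and 87.0% in that on chromosome 9, against 68.9% and 77.1% in their flanks. On chromosome 19 this class was at 65.5% ± 3.88 in WT (SD, n = 3) against 68.1% in the flanks, and its values of 61.7, 65.2 and 69.5% in WT and 69.1, 62.0 and 69.2% in DKO spanned almost the same range.

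Between the genotypes, cluster minus flanks did not overlap in the middle density classes when the 3 clusters were pooled. In windows of 6 to 10 CpGs, cluster minus flanks was -0.581, -0.735 and -1.07 points in WT and -2.06, -2.24 and -1.28 points in DKO. Every DKO sample was below every WT sample, with a difference of -1.07 points (exact permutation p = 0.1, adjusted p = 0.2 over the 4 classes). Chromosome 2 contributed most, with -2.03 points and no overlap (exact permutation p = 0.1). The groups overlapped on chromosome 9 (-0.435 points, exact permutation p = 0.4) and chromosome 19 (-0.508 points, exact permutation p = 0.3). In this class the flanks were 1.14 points higher in DKO and the clusters 0.0731 points higher, while the whole autosomes were 0.952 points higher. In windows of 3 to 5 CpGs the difference in cluster minus flanks was -0.910 points, also without overlap (exact permutation p = 0.1, adjusted p = 0.2). In this class chromosome 2 gave -1.18 points and chromosome 9 gave -0.887 points, each without overlap (exact permutation p = 0.1 each). On chromosome 19 the groups of this class overlapped (-0.435 points, exact permutation p = 0.5). They also overlapped for cluster minus autosomes over the 3 clusters (-0.579 points, exact permutation p = 0.3). The sparsest class gave -0.450 points (exact permutation p = 0.4) and the densest -0.302 points (exact permutation p = 1), with overlapping groups. The sparsest class ranged from -0.0999 without DKO replicate 1 to -0.967 without DKO replicate 3 (exact permutation p = 0.1). In the densest class the sign turned without WT replicate 3 (0.832) and without DKO replicate 2 (0.390), while without high-copy windows the difference was -1.15 points (exact permutation p = 0.5). On chromosome 2 alone the densest class gave -1.84 points (exact permutation p = 0.2).

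**Figure D3:**
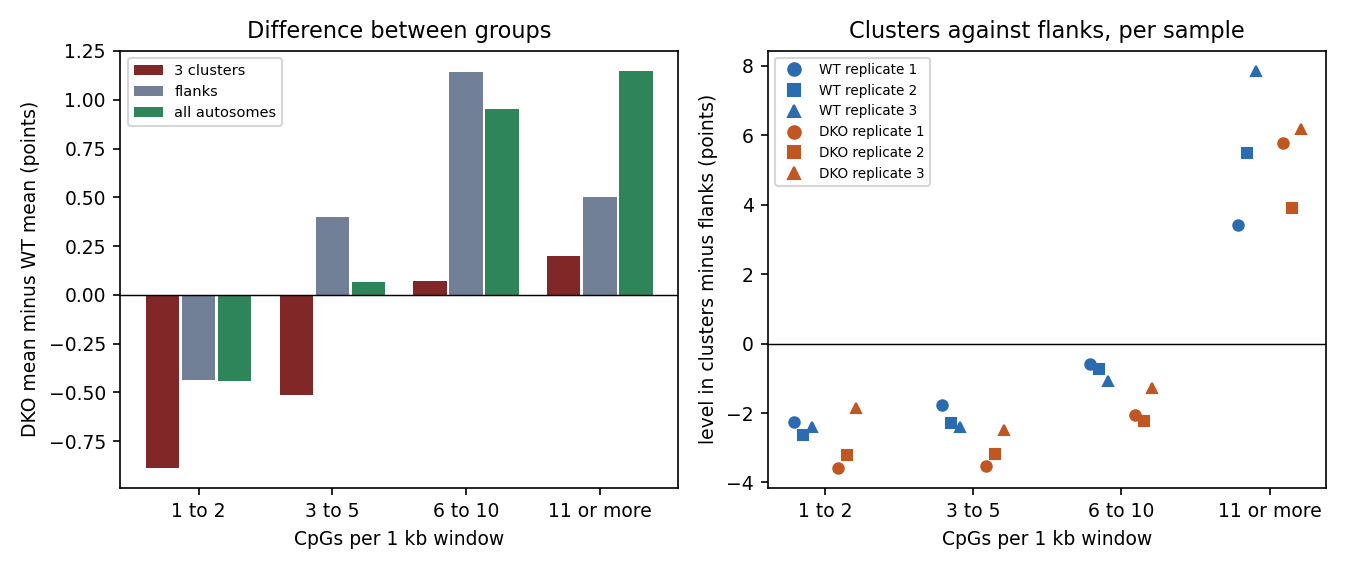
DKO minus WT methylation level (percentage points) by the number of CpGs in a 1 kb window, for the 3 clusters, their flanks and all autosomes. In windows of 6 to 10 CpGs the clusters lie at 0.0731 points, against 1.14 in the flanks and 0.952 over the autosomes.

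In blocks of 500 kb the DKO mean was below the WT mean in 13 of 18 blocks inside the clusters, compared with 19 of 60 blocks in the flanks. The blocks share the same 6 libraries, so these counts describe the libraries and were not tested. The median difference was -0.425 points in the clusters and 0.559 points in the flanks. The WT mean of a block ranged from 85.1 to 88.0% in the chromosome 2 cluster and from 75.2 to 84.1% in the chromosome 19 cluster, against 61.8 to 89.8% in the flanks.

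The DKO samples differed among themselves across the blocks. DKO replicates 1 and 2 were each below every WT sample in 11 of the 18 cluster blocks and above every WT sample in 2. DKO replicate 3 was below every WT sample in 0 blocks and above every WT sample in 12. In the 60 flank blocks, DKO replicates 1 to 3 were below every WT sample in 14, 21 and 3. They were above every WT sample in 29, 15 and 46 of the flank blocks. All 3 DKO samples were above all WT samples in 1 cluster block and below them in 0, while in the flanks these counts were 15 and 1 of 60. The cluster block where all DKO samples were higher starts at chr9:39500001, with levels of 87.2, 87.1 and 86.9% in WT and 87.6, 87.7 and 88.7% in DKO.

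**Figure D4:**
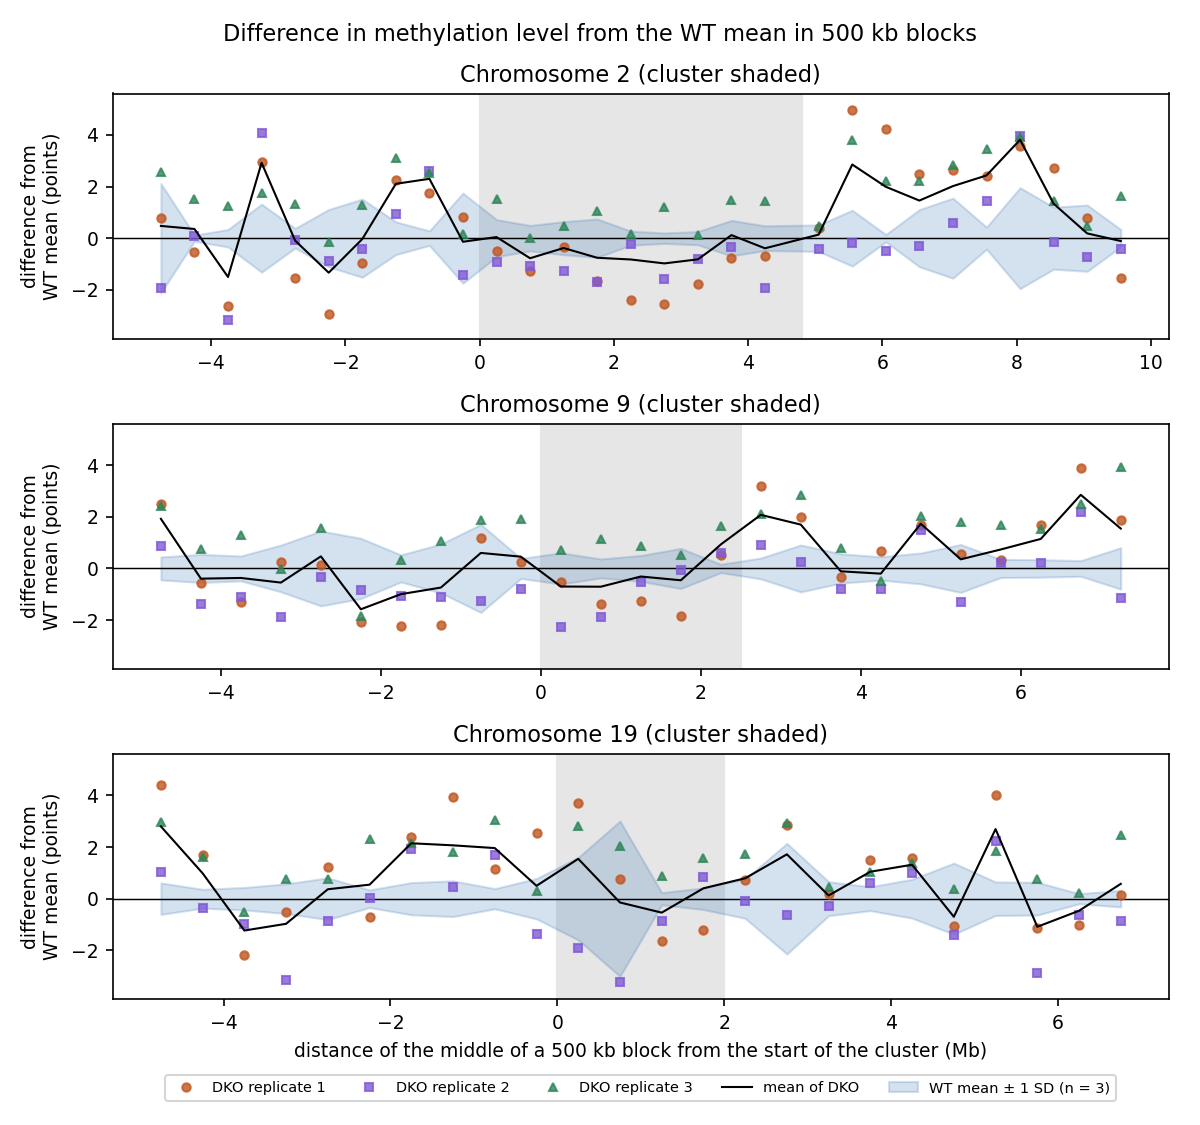
Difference of each DKO sample from the WT mean (percentage points) in 500 kb blocks along the clusters (shaded) and their flanks, against the distance from the start of the cluster in Mb; the band is the WT mean ± 1 SD and the line is the DKO mean. In the cluster on chromosome 2, DKO replicate 3 (triangles) lies above the other DKO samples and the line stays between -0.977 and 0.119 points, while in the flank to its right it reaches 3.81.

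Single 1 kb windows were tested where they held 3 or more CpGs and each sample had 20 or more reads there. This was met by 696 of the 8781 cluster windows (7.93%), with a median of 44 reads per sample, and by 33.2% of all autosomal windows. A call required a difference of at least 10 points and an adjusted p under 0.05, and no window met both: the quasi-binomial test called 0 windows higher and 0 lower in DKO, where over all tested windows 0.49% were called higher and 0.00723% lower. The smallest adjusted p in the clusters was 0.108. At an unadjusted p under 0.05, 27 cluster windows were higher (3.88%, against 7.32% of all tested windows) and 17 were lower (2.44%, against 1.95%). limma on log2 ratios called 0 windows in the clusters and 0 of all tested windows, so its calls do not set the clusters apart. At an unadjusted p under 0.05 it had 41 cluster windows (5.89%, against 7.12% of all tested windows). Fisher's exact test on reads pooled over a group, which ignores the spread between samples, called 18 cluster windows higher (2.59%, against 5.21% of all tested windows) and 6 lower (0.862%, against 0.804%).

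The direction over all tested cluster windows was close to balanced. The DKO mean was higher in 359 of 696 windows (51.6%, against 58.2% of all tested windows), and the median difference was 0.141 points against 0.928. Every DKO sample was above every WT sample in 38 windows (5.46%, against 9.05%) and below in 29 (4.17%, against 3.75%).

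Most tested cluster windows were highly methylated, as were most tested windows of the autosomes. The mean over the 6 samples was 80% or more in 599 windows (86.1%, against 82.4% of all tested windows) and 50 to 80% in 63 (9.05%, against 10.3%). It was 10 to 50% in 15 (2.16%, against 4.54%) and below 10% in 19 (2.73%, against 2.77%), of which 16 were on chromosome 19. The highest class had means of 90.5% ± 0.218 (WT) and 90.7% ± 0.643 (DKO) (SD, n = 3 each, exact permutation p = 0.7), and without DKO replicate 3 the difference of 0.197 points became -0.127. Over the autosomes this class was 0.785 points higher in DKO (exact permutation p = 0.1). The 15 windows at 10 to 50% measured 31.0, 35.1 and 33.0% in WT and 41.9, 42.5 and 38.0% in DKO, so the genotypes did not overlap. The 5 windows on chromosome 2 overlapped between the groups (2.35 points, exact permutation p = 0.8), while the 5 on chromosome 9 and the 5 on chromosome 19 did not (9.12 and 13.7 points, exact permutation p = 0.1 each). Over all 15 the difference was 7.82 points (exact permutation p = 0.1), beside 4.99 points in the same class over the autosomes, and the clusters exceeded the autosomes by 2.84 points more in DKO than in WT (exact permutation p = 0.2, adjusted p = 0.4), with overlapping groups. In the class of 50 to 80% the clusters gave 68.7, 68.5 and 67.7% in WT and 70.1, 66.7 and 75.1% in DKO, with overlapping groups (2.38 points, exact permutation p = 0.5), where the autosomes were 6.01 points higher. The class means over both genotypes set the classes, so a window that changes much can move between them.

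**Figure D5:**
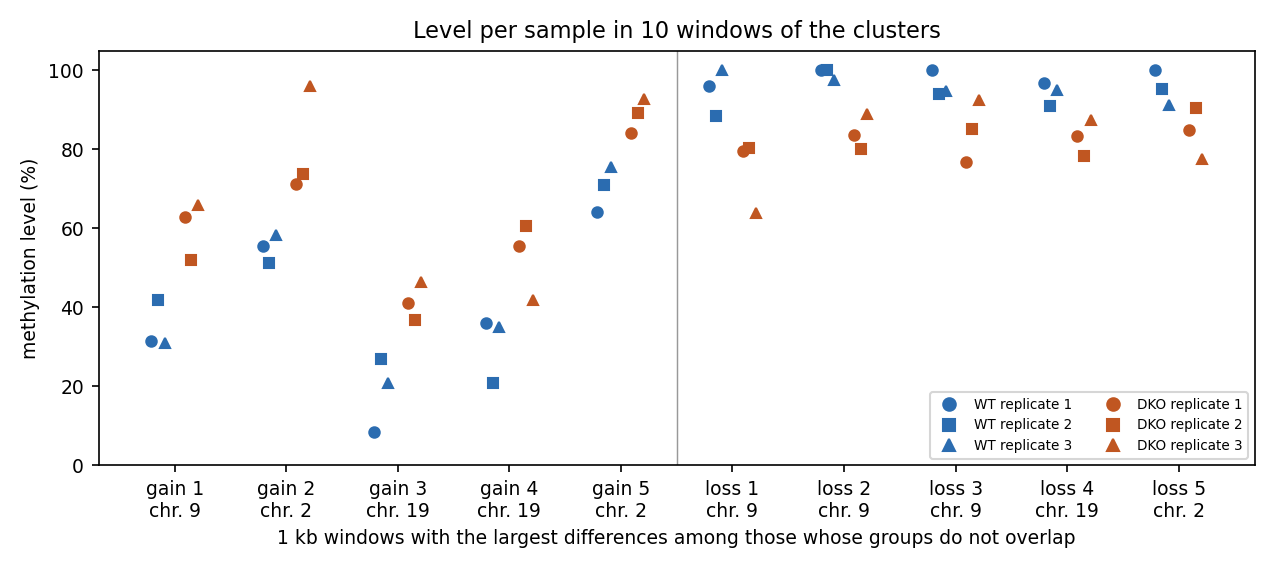
Methylation of tested 1 kb windows of the clusters in WT and DKO. Of the 696 tested windows, 599 had a mean level of 80% or more. Among windows whose groups did not overlap, the largest gains were at intermediate levels, up to 25.5 points at chr9:39924001-39925000. The largest losses among them were in highly methylated windows, down to -20.2 points at chr9:38367001-38368000.

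The windows with the largest gains among those whose groups did not overlap were of intermediate level. At chr9:39924001-39925000, with 15 CpGs, the level was 31.4, 41.9 and 31.0% in WT and 62.9, 52.0 and 65.9% in DKO, from 43 to 175 reads per sample. The difference of 25.5 points had an adjusted p of 0.108 in the quasi-binomial test and was not called. At chr19:12079001-12080000, with 18 CpGs, the level was 36.1, 20.8 and 35.1% in WT and 55.6, 60.6 and 41.9% in DKO (22.0 points, adjusted p = 0.197 in the quasi-binomial test). This window adjoins chr19:12080001-12081000, an unmethylated window of 40 CpGs. At chr19:12538001-12539000 the level was 8.33, 27.03 and 20.8% in WT and 41.2, 36.9 and 46.4% in DKO. The gains at chr2:85032001-85033000 and chr2:85562001-85563000 were 25.3 and 18.5 points, from 55.1% ± 3.52 and 70.3% ± 5.82 in WT (SD, n = 3 each).

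The largest losses without overlap were in highly methylated windows. At chr9:38618001-38619000 the level was 100, 100 and 97.6% in WT and 83.7, 80 and 88.9% in DKO, a difference of -15 points (adjusted p = 0.147 in the quasi-binomial test), from 31 to 86 reads per sample. At chr9:38367001-38368000, with 5 CpGs and 24 to 41 reads, the difference was -20.2 points from 94.8% ± 5.86 in WT (SD, n = 3). The other losses, at chr9:38078001-38079000, chr19:12734001-12735000 and chr2:88136001-88137000, were -11.4, -11.3 and -11.2 points. None of the 10 windows with the largest gains or losses passed the threshold.

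The 5 tested windows with the lowest level were all on chromosome 19 and were unmethylated in both genotypes. They start at 12080001, 12085001, 12086001, 12648001 and 12869001 and hold 11 to 104 CpGs, and no sample exceeded 2.38% in any of them. The window at 12648001 overlaps the Fam111a promoter shown above.

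Promoters with at least 4 CpGs were placed on the mm9 CpGs of the data by the exact spacing of their CpGs, without converting coordinates. Of 4058 such promoters on the 3 chromosomes, 3958 (97.5%) matched at a single place. The clusters held 18 of these, of which 5 were Olfr promoters: Olfr1102, Olfr1212, Olfr877, Olfr958 and Olfr982. Olfr976, shown above, matched nowhere, and most Olfr promoters have too few CpGs to be placed.

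The Olfr promoters that could be placed were methylated in both genotypes. The promoter of Olfr1212, with its 7 CpGs, lies at chr2:88798375-88798674 of mm9 and measured 81.1, 100 and 91.7% in WT and 100, 88.2 and 100% in DKO, from 12 to 37 reads per sample. WT and DKO means were 90.2% ± 5.12 and 94.1% ± 6.48 at Olfr982, 92.6% ± 12.8 and 94.4% ± 7.60 at Olfr1102, and 87.3% ± 13.4 and 91.0% ± 4.65 at Olfr958 (SD, n = 3 each). Olfr877 was lower, at 66.7, 71.4 and 38.1% in WT and 70.3, 67.8 and 57.1% in DKO. In each of these promoters the groups overlapped, and with 5 to 59 reads per sample smaller differences were not detectable.

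Most promoters of the other genes of the clusters were either unmethylated or highly methylated. The Osbp promoter, with 34 CpGs at chr19:12040084-12040383, was at 0% in all 6 samples, from 92 to 340 reads. The Fam111a promoter was at 0% in 5 samples and at 3.13% in WT replicate 2, and lies at chr19:12647750-12648049 in mm9. The promoter of Lpxn was at 0% in 5 samples and at 1.64% in WT replicate 3. Zfp202, which encodes a zinc finger protein, has a promoter at the right end of the chromosome 9 cluster that was at 0% in 5 samples and at 6.33% in DKO replicate 3. Methylated ones included Pfpl, a gene for a pore-forming protein-like product, with a WT mean of 97.8% ± 3.72 and a DKO mean of 93.6% ± 3.41 (SD, n = 3 each). A330040F15Rik lay between, at 59.3% ± 16.1 in WT and 56.9% ± 15.8 in DKO (n = 3 each).

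Groups without overlap were seen at 2 of these promoters, both from few reads and neither tested. How often groups do not overlap among all placed promoters was not counted, so the number cannot be read as a trait of the clusters. A promoter of AW551984, at chr9:39411660-39411959, was at 0% in all WT samples, from 13 to 18 reads, and at 9.68, 8.33 and 4.35% in DKO, from 23 to 36 reads. Another promoter of this gene, at chr9:39411806-39412105, overlapped between the groups, with 7.14, 0 and 5.26% in WT and 15, 8.33 and 2.94% in DKO. The Gm52520 promoter, at chr2:85798188-85798487, measured 100, 100 and 92.5% in WT and 81.1, 72.7 and 88.5% in DKO, from 8 to 40 reads per sample. The Lrrc55 promoter was at 0% in 5 samples and at 33.3% in DKO replicate 1, from 9 reads in that sample.

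At the scale of 1 Mb, 8 bins lay wholly inside the clusters, and the quasi-binomial test called 0 of them higher and 0 lower, with 0 past an unadjusted p of 0.05. Over all 2417 bins 15.6% were called higher and 0.124% lower, and 26.6% were past an unadjusted p of 0.05 in this test. The 4 bins of chromosome 2, starting at 85, 86, 87 and 88 Mb, differed by -0.357, -0.558, -0.882 and -0.391 points. The bins of chromosome 9 differed by -0.515 points at 38 Mb and 0.361 points at 39 Mb, and those of chromosome 19 by 0.721 points at 12 Mb and -0.113 points at 13 Mb. Their adjusted p-values were 0.632 to 0.938. Without DKO replicate 2, the bin chr19:12000001-13000000 was called higher, by 2.35 points (adjusted p = 0.0300, quasi-binomial test), in a fit that called 33.1% of all bins higher and 0.165% lower. That bin had levels of 74.2, 75.9 and 78.3% in WT and 78.4, 73.6 and 78.6% in DKO, and DKO replicate 2 was its lowest sample.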

How the data were processed

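Genomic DNA of 6 LSK samples was sheared, ligated to adapters, bisulfite-treated and amplified, per the labels' protocols. The authors deposited 1 table that holds, for every CpG and sample, raw counts of methylated reads and of total reads. The submitters' processing notes name BSMAP 2.74 and mm9; how reads were filtered, deduplicated and trimmed is not given in the sources used here. Duplicates would widen the counting error beyond what the read numbers imply. Starts were read as counted from 0, since all rows are 2 bp wide, and are printed from 1. The table had 0 columns of other samples.

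A level is methylated over all reads, in percent, so deeper CpGs weigh more. Reads were summed over clusters, flanks, 500 kb blocks, 1 kb windows and 1 Mb bins, with Python 3.11.15, numpy 2.4.6, pandas 2.3.3 and scipy 1.17.1. Single values per sample were compared by two-sided exact permutation tests, whose p-values measure the spread between these samples. Windows (774732 tested) and bins (at least 1000 reads in every sample, 2417 tested) were fitted over all autosomes with a quasi-binomial model of the 2 groups. Its dispersion was moderated with squeezeVar of limma 3.58.1 in R 4.3.3 with a floor of 1, followed by an F test and Benjamini-Hochberg adjustment. The prior that this moderation adds to each window or bin assumes that they vary alike. The window test was also run on simulated reads with known changes, and the outcome is not given here.

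Windows were named by rule: any that was called, the 5 lowest in level, the 5 largest differences in each direction among windows whose groups did not overlap, and every 1 Mb bin inside a cluster. The regions and lists were chosen with earlier results of these data known. RefSeq (GRCm38.p6) gave gene order and promoter sequences; when the 4058 promoters were sought on chromosome 1 by CpG spacing, 20 matched, 18 of them with 4 CpGs. Replicate numbers were not used to pair the samples in the main tests. Alternatives covered CpG weights, depth minimums, flanks, bounds, high-copy windows, window size, test and samples left out.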

Additional observations from a re-analysis of the deposited data

How the results depend on the processing

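Of 285 alternative values, 265 kept the sign of a difference, left a count unchanged, or kept a window level within its SD between samples. The size and p-value of a difference were not part of this check. The chromosome 9 cluster minus its flanks kept its sign but went from -0.145 to -1.72 points with equal CpG weights. Among the 20 exceptions, 16 were changes of sign of differences that their tests did not separate from 0, and 4 were counts or values that moved. For the level of the chromosome 9 cluster, the unweighted mean over tested windows gave 0.0889 points, and leaving out single samples gave -0.801 to 0.131. For this cluster minus its flanks, the left flank alone gave 0.706, the right flank alone -1.36, and leaving out samples -0.517 to 0.197. For the chromosome 19 cluster, keeping CpGs covered by 5 or more reads in each sample gave -0.661, bounds drawn in by 250 kb gave -0.421, and leaving out samples gave -0.540 to 1.40; minus flanks, leaving out samples gave -1.15 to 0.234. The 3 clusters together gave 0.409 as an unweighted mean over tested windows and -1.001 to 0.276 when samples were left out. In windows of 11 or more CpGs, cluster minus flanks ranged from -1.39 to 0.832, and in windows at 80% or more leaving out samples gave -0.127 (without DKO replicate 3) to 0.516. Fisher's exact test on pooled reads called 18 windows higher and 6 lower, and the window at chr19:12869001-12870000 moved from 0.397 to 2.78% with equal CpG weights. Leaving out samples gave 0 to 1 bins called higher. The chromosome 2 level ranged from -1.15 to -0.116 when samples were left out. Apart from the exceptions whose construction shows it (Fisher's test pools reads), the cause was not tested. The classes by level and the equal weights in named windows were chosen after seeing the data. With the replicate number as a block, the differences were the same, -0.493 points for the chromosome 2 cluster (sign-flip p = 0.75, exact) and -1.72 points for it minus its flanks (p = 0.25, exact, the smallest possible with 3 pairs), and 0 windows and 0 bins of the clusters were called. That fit called 0 of all tested windows, and 660 of the 2417 bins higher and 12 lower. Deviations of same-numbered samples correlated at 0.00332 to 0.00359 and those of others at -0.00204 to -0.00136, so each sample correlated best with its own number but the numbers were not taken as pairs. Of the cluster windows, 7.93% met the minimums on CpGs and reads. With 10 reads in place of 20, 2429 were tested and 0 called (smallest adjusted p 0.237, quasi-binomial test). That setting called 303 of all 1369491 tested windows higher and 1 lower, so the 0 does not set the clusters apart.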
